A study of Mus musculus with 6 samples.

Results

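The 10 genes studied here mark fat cells and were followed in RNA of the gastrocnemius, a calf muscle made mostly of fast fibers. They are Adipoq, Retn, Cfd, Lep, Cidec, Cidea, Pparg, Cebpa, Fabp4 and Adrb3. Members were the probe sets whose single gene symbol on the array platform was one of these names. Of the 10 genes, 8 had a probe set, each of them 1, among 23521 probe sets with 1 symbol and 41345 in all. Cfd and Adrb3 were not analysed here. The 6 arrays came from 3 transgenic and 3 WT mice, all male, 3 months old and of strain background C57 in the labels (C57BL/6 in the methods), with 1 array per mouse. According to the methods, transgenic mice carried a porcine DGAT1 cDNA driven by the porcine MCK promoter, which is active in muscle fibers, were F1 offspring of founders mated with WT mice, and ate chow like the WT mice. The sample labels instead call the transgenic group a DGAT1 knockout, so the groups are named here only as transgenic and WT, and how many founder lines the 3 transgenic mice represent is not given in the sources used here.

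Fat cells lie between muscle fibers and along the connective tissue of a muscle, where they make up the cellular part of intramuscular fat. Their identity is set by the nuclear receptor PPARγ (Pparg) and the transcription factor C/EBPα (Cebpa), which switch on each other and the genes of fat storage. Mature cells then coat their lipid droplets with proteins such as those of Cidec and Cidea, carry fatty acids on the binding protein of Fabp4, and release the hormones adiponectin (Adipoq), leptin (Lep) and, in mice, resistin (Retn). DGAT1 catalyzes the last step of triacylglycerol synthesis in fat cells and in muscle.

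None of the 8 measured genes differed between transgenic and WT mice beyond the spread between mice. All 8 had a higher mean in transgenic mice, by 1.01-fold (Fabp4) to 1.39-fold (Retn), and in all 8 this difference of means was smaller than the SD within groups. The larger differences were between single mice of the same group. Retn varied 2.40-fold and Cidec 2.53-fold among the 3 WT mice. Over the 6 arrays Retn, Cidec, Pparg, Cebpa and Fabp4 varied together (Pearson's r of 0.717 to 0.915 for their 10 pairs), and r of Adipoq with these 5 genes was 0.182 to 0.755. The 5 genes were grouped after their r had been seen, and pairs outside the group reached similar values, such as Lep with Cidea (0.779), Cidec (0.742) and Pparg (0.717). The difference between these sets of r was not tested. No pair passed the test after adjustment for the number of pairs. In whole muscle, a smaller number of fat cells and less of an mRNA per fat cell cannot be told apart.

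Promoters of some of the genes are shown because the 2 factors of the list, PPARγ and C/EBPα, bind DNA. A relation of promoter letters to the co-variation of the genes was not tested. RefSeq promoter sequence (build GRCm38.p6) was found for 7 of the 10 genes, and for 6 of the 8 measured genes, which have 9 listed start sites. Shown are the 250 bases before the start site, 5′ to 3′ on the strand of the gene, for the hormone genes Lep, Retn and Adipoq, the second listed start of Cidec and the third of Pparg. Capitals mark matches to the C/EBP motif TTGCNNAA on either strand. The starts shown for Cidec and Pparg are those with such a match. The other listed starts of Cidec and Pparg and that of Cebpa have none and are not shown.
Lep (chr6:29059971-29060220, plus strand): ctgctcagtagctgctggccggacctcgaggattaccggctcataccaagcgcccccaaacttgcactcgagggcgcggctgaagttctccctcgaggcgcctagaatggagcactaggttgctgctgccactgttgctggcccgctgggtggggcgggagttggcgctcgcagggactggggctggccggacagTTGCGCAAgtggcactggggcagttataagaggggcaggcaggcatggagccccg
Cidec (chr6:113434765-113435014, minus strand): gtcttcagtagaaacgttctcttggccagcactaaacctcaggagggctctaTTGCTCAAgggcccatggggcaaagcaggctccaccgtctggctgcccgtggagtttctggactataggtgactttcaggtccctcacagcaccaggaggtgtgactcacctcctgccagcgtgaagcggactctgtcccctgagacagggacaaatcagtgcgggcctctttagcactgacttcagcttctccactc
Pparg (chr6:115421816-115422065, plus strand): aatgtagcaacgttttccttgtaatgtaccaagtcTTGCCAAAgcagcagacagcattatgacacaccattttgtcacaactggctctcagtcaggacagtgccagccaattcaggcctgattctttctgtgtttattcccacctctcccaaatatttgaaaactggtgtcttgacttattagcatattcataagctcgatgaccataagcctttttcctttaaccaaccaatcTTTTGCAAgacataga
Retn (chr8:3655520-3655769, plus strand): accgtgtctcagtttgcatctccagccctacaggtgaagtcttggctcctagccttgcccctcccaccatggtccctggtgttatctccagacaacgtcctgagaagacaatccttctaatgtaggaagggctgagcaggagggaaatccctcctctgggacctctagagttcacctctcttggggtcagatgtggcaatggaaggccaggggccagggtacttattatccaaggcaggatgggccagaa
Adipoq (chr16:23146286-23146535, plus strand): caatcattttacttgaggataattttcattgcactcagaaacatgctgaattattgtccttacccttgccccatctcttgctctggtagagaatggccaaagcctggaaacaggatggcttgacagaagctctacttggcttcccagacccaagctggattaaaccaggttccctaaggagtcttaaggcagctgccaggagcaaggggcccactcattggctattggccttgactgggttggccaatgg

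The C/EBP motif lay 55 bases before the start of Lep, as TTGCGCAA, 198 bases before that of Cidec, as TTGCTCAA, and 215 and 16 bases before that of Pparg. It was thus present at 3 of the 9 start sites, compared with 9.56% of 32851 mouse promoters of the same length. The motif AGGTCA, the core bound by nuclear receptors, was found at 2 of the 9 starts, both of Pparg (14.0% of all promoters), and TATAAA at 2 of the 9, of Pparg and Cebpa (12.4%). No match of one motif overlapped a match of another. Retn and Adipoq held none of the 3 in these windows, which says only that the letters are not in them.

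Values below are log2 expression values as the authors normalized them, so that a step of 1 is a doubling within a gene. They do not compare levels between genes. Retn encodes resistin, a hormone that mouse fat cells secrete. Its values were 8.86, 8.24 and 8.97 in transgenic replicates 1, 2 and 3, and 8.14, 7.62 and 8.88 in WT replicates 1, 2 and 3. The ranges overlapped, with WT replicate 3 between transgenic replicates 1 and 3 and WT replicate 2 lowest of all. The means were 8.69 ± 0.40 (SD, n = 3) and 8.21 ± 0.64 (SD, n = 3), a 1.39-fold difference (95% confidence interval 0.782 to 2.47, log2 difference 0.48 with a standard error of 0.35, limma adjusted p = 1). Without WT replicate 3 the log2 fold change was 0.81 and Retn was past the study threshold, a fold change of at least 1.5 with an unadjusted p under 0.05, and without WT replicate 2 it was 0.18.

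**Figure D1:**
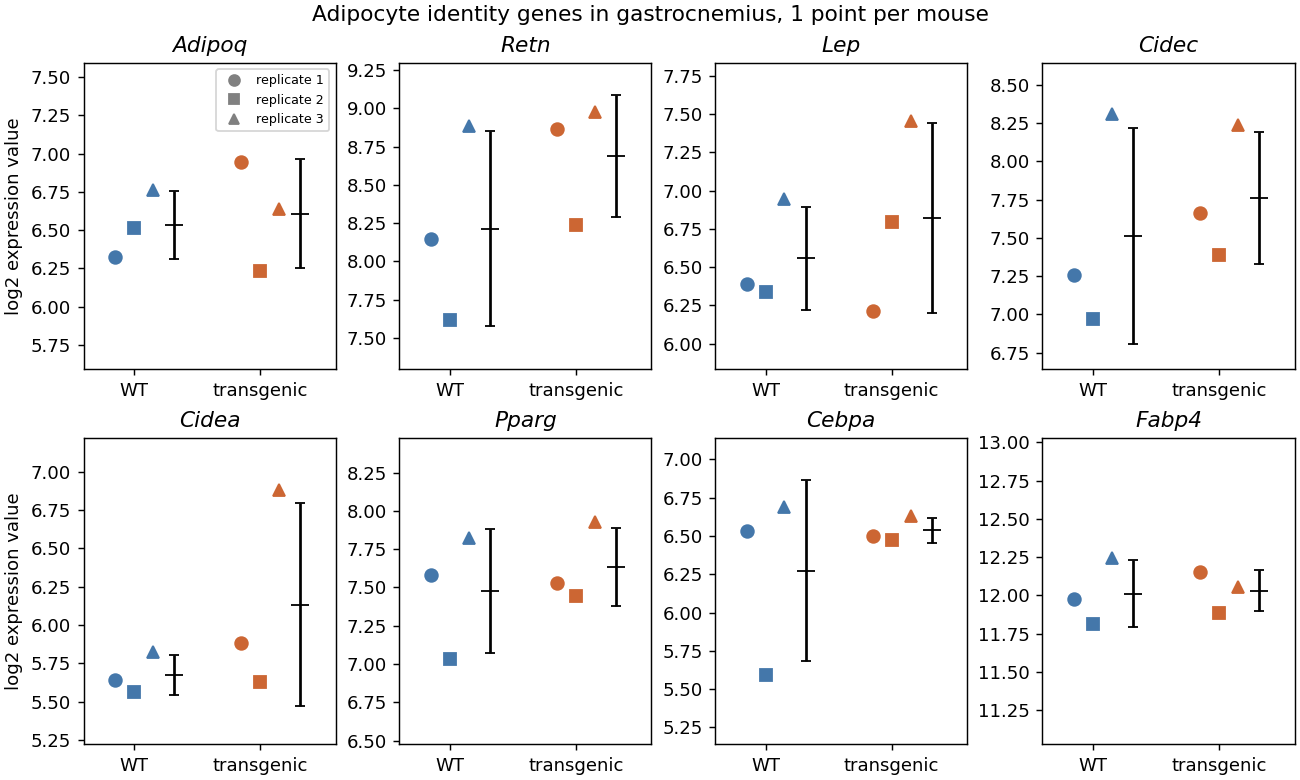
Log2 expression value of each measured adipocyte identity gene (vertical axis, 2 units high in every panel) in the 3 WT and 3 transgenic mice, with marker shape for the replicate number and a bar for mean ± SD. The groups overlap in all 8 genes, and WT replicate 2 is the lowest point in 6 of them.

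Adipoq encodes adiponectin. It read 6.95, 6.24 and 6.64 on the transgenic arrays and 6.33, 6.51 and 6.76 on the WT arrays. Transgenic replicate 1 was highest and transgenic replicate 2 lowest, so the WT mice lay inside the transgenic range. The difference was 1.05-fold (95% confidence interval 0.730 to 1.51, adjusted p = 1 from limma), and the log2 fold change turned from 0.07 to -0.10 without transgenic replicate 1. Lep, which encodes the satiety hormone leptin, read 6.21, 6.79 and 7.45 on the transgenic arrays and 6.39, 6.33 and 6.95 on the WT arrays. Here transgenic replicate 1 was lowest and transgenic replicate 3 highest, and the groups overlapped. The difference was 1.20-fold (95% confidence interval 0.694 to 2.07, adjusted p = 1 from limma), and the log2 fold change was -0.05 without transgenic replicate 3.

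Cidec and Cidea encode droplet proteins that join small lipid droplets into larger ones. Cidec read 7.66, 7.39 and 8.24 on the transgenic arrays and 7.26, 6.97 and 8.31 on the WT arrays. Replicate 3 of each group was highest, and WT replicate 2 was lowest. The difference was 1.19-fold (95% confidence interval 0.633 to 2.23, adjusted p = 1 from limma), and the log2 fold change turned from 0.25 to -0.02 without WT replicate 2. Cidea, which is better known from brown fat, read 5.88, 5.63 and 6.88 on the transgenic arrays and 5.64, 5.57 and 5.82 on the WT arrays. Transgenic replicate 3 alone stood above the other mice. The difference was 1.37-fold (95% confidence interval 0.810 to 2.32, adjusted p = 1 from limma), and leaving out transgenic replicate 3 took the log2 difference from 0.46 to 0.08.

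Pparg read 7.53, 7.45 and 7.93 on the transgenic arrays and 7.58, 7.03 and 7.82 on the WT arrays. Cebpa read 6.50, 6.48 and 6.63 on the transgenic arrays and 6.54, 5.60 and 6.69 on the WT arrays. For both regulators WT replicate 2 was lowest. The other 5 mice lay between 6.48 and 6.69 for Cebpa and between 7.45 and 7.93 for Pparg. Cebpa varied 1.12-fold among transgenic mice and 2.13-fold among WT mice. The differences between groups were 1.12-fold for Pparg (95% confidence interval 0.747 to 1.67) and 1.20-fold for Cebpa (0.745 to 1.93), each with an adjusted p of 1 from limma. Without WT replicate 2 the log2 fold changes turned negative, at -0.07 for Pparg and -0.08 for Cebpa.

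Fabp4 encodes the fatty acid binding protein of fat cells, which capillary endothelium also makes. It varied least, reading 12.15, 11.88 and 12.06 on the transgenic arrays and 11.97, 11.82 and 12.24 on the WT arrays. Highest and lowest mouse differed 1.35-fold, and both belonged to the WT group. The fold change was 1.01 (95% confidence interval 0.768 to 1.34, adjusted p = 1 from limma), so that for Fabp4 a change of 1.5-fold in either direction lay outside the interval. The intervals of the other 7 genes reached up to 1.51-fold (Adipoq) to 2.47-fold (Retn), so a rise of 1.5-fold lay inside each of these intervals.

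Of the 8 genes 0 were past the study threshold, against 618 of 41345 probe sets (1.49%) and 135 of the 23521 with 1 symbol (0.574%). At this background 0 of 8 is not a result particular to them. With limma, 0 of 41345 probe sets (0%) reached an adjusted p below 0.05, while 1197 (2.9%) had an unadjusted p under 0.05, of which 0 were among the 8 genes. The unadjusted p of the 8 ranged from 0.199 (Cidea) to 0.912 (Fabp4), and exact permutation tests over the 20 assignments of 6 mice to 3 and 3 gave two-sided p of 0.3 to 1, where 0.1 is the smallest possible. The transgenic and WT values overlapped in all 8 genes, whereas they did not overlap in 2982 of all probe sets (7.21%). The median log2 fold change was 0.25 over the 8 genes and -0.02 over the probe sets with 1 symbol. It was -0.05 over the 8 genes with limma's array weights, which gave WT replicate 3 a weight of 5.15 and the other 5 arrays 0.370 to 1.53.

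**Figure D2:**
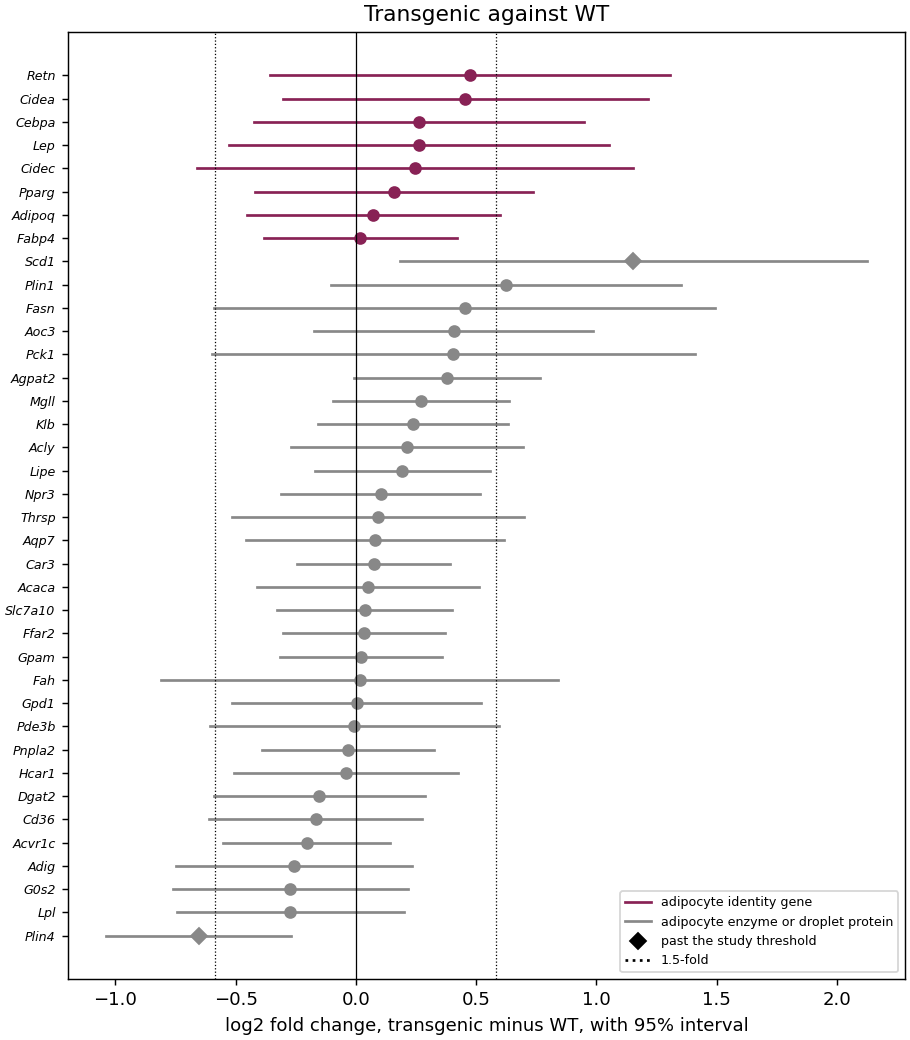
Log2 fold change of transgenic over WT mice (horizontal axis) with its 95% confidence interval from limma for the 8 adipocyte identity genes (purple) and 30 further genes of fat storage (gray). Intervals of all 8 adipocyte identity genes include 0, and 2 of the 30 further genes, Scd1 and Plin4, are past the study threshold with limma, of which Plin4 also with the methods' t-test.

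Most of the 8 genes had the same lowest mouse, but the highest mouse differed between them. Adipoq was lowest in transgenic replicate 2 and Lep in transgenic replicate 1. WT replicate 2 was lowest for 6 of the 8 genes (Retn, Cidec, Cidea, Pparg, Cebpa and Fabp4). Transgenic replicate 3 was highest for 4 (Retn, Lep, Cidea and Pparg), WT replicate 3 for 3 (Cidec, Cebpa and Fabp4) and transgenic replicate 1 for Adipoq. WT replicate 2 was also lowest for 41.8% of the 13624 probe sets with 1 symbol at or above the median level, whereas transgenic replicate 3 was highest for 11.8% of these and WT replicate 3 for 17.3%. The array of WT replicate 2 had the highest median (5.88) and the smallest spread over probe sets (SD 1.82) of the 6 arrays. The part of this array's overall distribution in the low values of the 6 genes was not tested.

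Retn and Cidec had the closest relation of the 28 pairs (r = 0.915, exact permutation p = 0.00694, adjusted p = 0.0875, and rho = 0.943, exact permutation p = 0.0167, adjusted p = 0.204). Without the 2 arrays farthest from the median of Retn, transgenic replicate 3 and WT replicate 2, r was 0.834. Pparg and Cebpa had r = 0.906 (exact permutation p = 0.00694, adjusted p = 0.0875) and rho = 0.943 (exact permutation p = 0.0167, adjusted p = 0.204). Their r was 0.993 without transgenic replicate 3 and WT replicate 2. Cidec and Pparg had r = 0.902 (exact permutation p = 0.0125, adjusted p = 0.0875) and rho = 0.771 (exact permutation p = 0.103, adjusted p = 0.206). Their r was 0.772 without transgenic replicate 3 and WT replicate 3, the arrays farthest from the median of Cidec. This kept WT replicate 2, which was lowest for both genes. Of the 28 pairs, compared after the values had been seen, 27 had a positive r (median 0.706). An unadjusted exact permutation p under 0.05 was found for 7, and 0 had an adjusted p under 0.05. The pairs share genes and arrays, so they are not independent. Over probe sets at or above the median level, the median r was 0.265 with Retn and 0.129 with Adipoq. How often pairs of other such probe sets reach these values was not tested. After the mean of its own group was taken from each array, the 10 pairs among Retn, Cidec, Pparg, Cebpa and Fabp4 had r of 0.712 to 0.966, with a median of 0.867 against 0.854 before. Without the 2 arrays farthest from the median of the first gene of each pair, r of these 10 pairs ranged from 0.308 to 0.993.

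**Figure D3:**
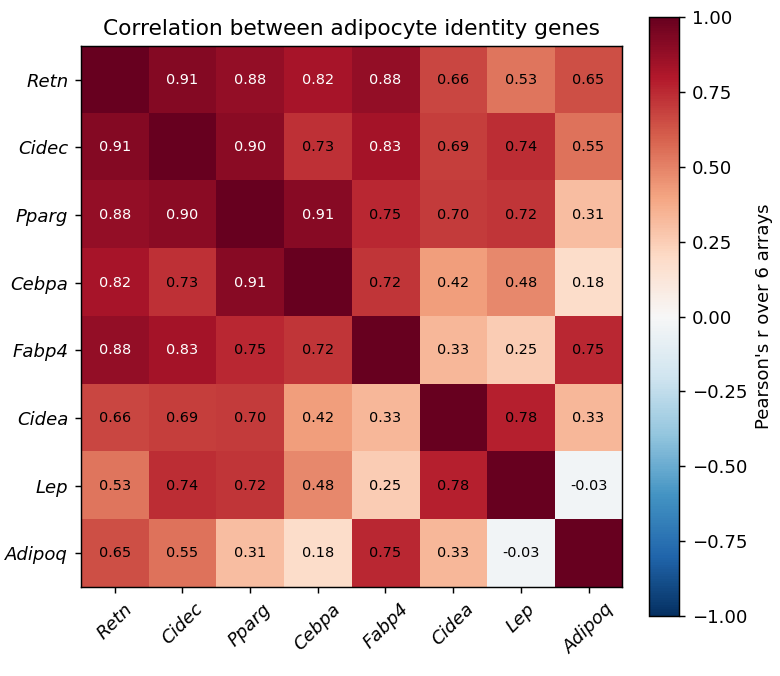
Pearson's r between each pair of the 8 measured adipocyte identity genes over 6 arrays (color and printed value). The block of Retn, Cidec, Pparg, Cebpa and Fabp4, grouped after their r had been seen, holds r of 0.717 to 0.915. Outside it, Lep has r of 0.779 with Cidea, 0.742 with Cidec and 0.717 with Pparg. The row of Adipoq holds r of -0.03 to 0.755.

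Adipoq was compared with each of the other 7 genes in turn. It was nearest to Fabp4 (r = 0.755, exact permutation p = 0.0875, adjusted p = 0.612, and rho = 0.771, exact permutation p = 0.103, adjusted p = 0.520) and then to Retn (r = 0.648, exact permutation p = 0.182, adjusted p = 0.632, and rho = 0.543, exact permutation p = 0.297, adjusted p = 0.520). With Lep it had r = -0.03 over all 6 arrays and 0.675 without transgenic replicates 1 and 2, so this value rests on those mice. None of the 7 relations passed the adjusted threshold, with 0 at an unadjusted exact permutation p under 0.05, although Fabp4 had r = 0.852 (unadjusted exact permutation p = 0.0417) after quantile normalization. Lep and Cidea, both highest in transgenic replicate 3, had r = 0.779 (exact permutation p = 0.0903, adjusted p = 0.192) but rho = 0.371 (exact permutation p = 0.497, adjusted p = 0.535).

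**Figure D4:**
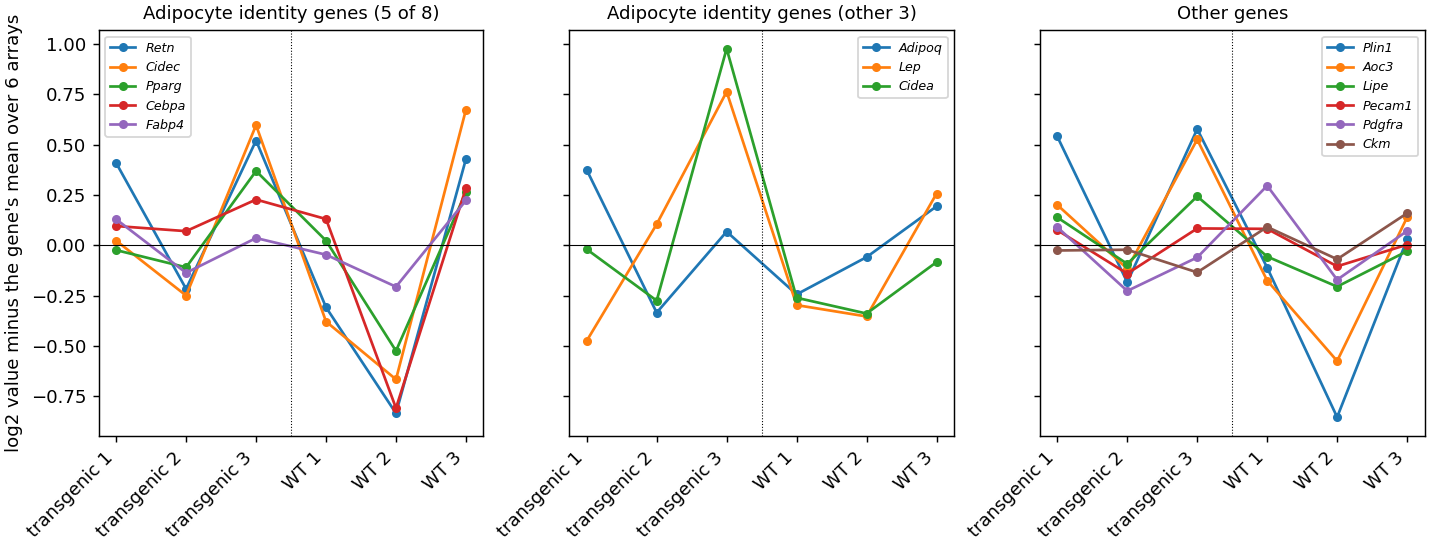
Log2 value of each gene minus its own mean (vertical axis) on the 6 arrays (horizontal axis, transgenic left and WT right of the dotted line), where lines only link the points of a gene. Retn, Cidec, Pparg, Cebpa and Fabp4 (left) are lowest in WT replicate 2, and Lep and Cidea (middle) are highest in transgenic replicate 3. Of the other genes (right), Plin1, Aoc3 and Lipe have r with Retn of 0.923, 0.956 and 0.861. Pecam1, Pdgfra and Ckm have r with Retn of 0.622, 0.263 and 0.0764, and with group means removed of 0.673, 0.544 and 0.543.

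Genes whose pattern was most like that of a member were ranked by r among 481 probe sets with 1 symbol, a level not below the median and an SD of at least 0.5 over the 6 arrays. For Retn the nearest were Lgals12 (r = 0.960), which encodes a galectin of fat cell droplets, and Plin1 (r = 0.923), which encodes perilipin 1, the main coat protein of fat cell droplets. These were the 2 of 481 (0.416%) with r of at least 0.9. Errfi1, Scd1, Zfp36, Cyp2f2, Nr4a1, Plk3, Fosl2 and Pvr followed, at 0.811 to 0.869. For Adipoq the nearest of the 481 were Ddit4 (r = 0.901) and Klf2 (r = 0.887), followed by Mir1933, Apold1, Gadd45g, Klf4, Mir1904, Arntl, Errfi1 and Plk3, at 0.755 to 0.857. Ddit4 encodes a stress-induced inhibitor of mTORC1 and Klf2 an endothelial transcription factor, and Plin1 and Lgals12 were not among the 10 nearest to Adipoq. The ranking for Retn was added after its values had been seen, and both are descriptions over 6 arrays. Among the 30 further genes of fat storage below, Slc7a10, an amino acid transporter gene of fat cells, had the highest r with Adipoq (0.945). Its SD over the 6 arrays was 0.127, under the 0.5 of the ranking. The 30 genes had a median r with Adipoq of 0.442 (26 positive), and the 7 endothelial markers had 0.573 (6 positive). So a high r with Adipoq was not particular to genes of fat storage.

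Of 31 further genes of fat storage, 30 were measured, and 2 were past the study threshold. The desaturase gene Scd1 was higher (2.22-fold, with WT replicate 3 inside the transgenic range) and Plin4, which encodes a droplet protein abundant in muscle too, was lower (0.636-fold). With the methods' t-test Plin4 was past the threshold and Scd1 was not (unadjusted p = 0.0888). The median log2 fold change of the 30 genes was 0.04, with 20 higher and 10 lower means. Plin1 read 7.38, 6.66 and 7.42 on the transgenic arrays and 6.73, 5.99 and 6.87 on the WT arrays, a 1.54-fold difference (95% confidence interval 0.931 to 2.55, adjusted p = 1 from limma) that was not past the threshold. WT replicate 2 was again lowest, and transgenic replicate 2 was next. Aoc3, which encodes an amine oxidase of fat cells and smooth muscle, read 7.84, 7.53 and 8.17 on the transgenic arrays and 7.47, 7.07 and 7.78 on the WT arrays (1.33-fold, 95% confidence interval 0.887 to 1.98, adjusted p = 1 from limma). The hormone-sensitive lipase gene Lipe had a log2 fold change of 0.19. Over the 30 genes the median r with Retn was 0.657 and 24 were positive, compared with a median of 0.265 over probe sets at or above the median level. The 7 macrophage markers had a median of 0.715 with 6 positive, so a high r with Retn was not particular to genes of fat storage. Aoc3 (r = 0.956) and Plin1 were above 0.9 and Lipe had 0.861.

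The acyltransferase gene Agpat2, which makes phosphatidic acid for triacylglycerol synthesis, read 8.07, 7.97 and 8.01 on the transgenic arrays and 7.74, 7.37 and 7.80 on the WT arrays. These did not overlap, as in 7.21% of all probe sets, but the 1.30-fold difference was under the fold minimum (95% confidence interval 0.994 to 1.70, adjusted p = 1 from limma). Fasn and Pck1, which encode fatty acid synthase and an enzyme of glycerol 3-phosphate formation, had log2 fold changes of 0.45 and 0.40, neither past the threshold. Mgll, the monoacylglycerol lipase gene, had no overlap either (log2 difference 0.27) and was not past it. Agpat2, Mgll and Lipe were picked after their values were seen.

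Of 16 genes of other secreted factors 14 were measured and 0 passed. Their median log2 difference was 0.13. Sfrp5, a secreted Wnt inhibitor of fat cells, had values of 7.95 to 8.14 in transgenic and 7.47 to 7.83 in WT mice (1.34-fold). Retnla, a paralog of Retn made by macrophages and fat, had values of 9.51 to 9.98 in transgenic and 9.06 to 9.48 in WT mice (1.37-fold). Both were without overlap, as were 7.21% of all probe sets, and under the fold minimum. C1qtnf3, a paralog of Adipoq, reached 7.78 in transgenic replicate 3, with 6.49 and 6.23 in the other transgenic mice and 5.65 to 6.24 in WT mice, and was not past the threshold (1.83-fold, 95% confidence interval 0.942 to 3.55, adjusted p = 1 from limma). Of 19 paralogs of the 10 genes 16 were measured, and 0 were past it.

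The receptors through which these hormones act were measured in 6 of 9 cases, and 0 were past the threshold. The adiponectin receptor genes Adipor1 and Adipor2 had log2 fold changes of -0.05 and -0.17, Cdh13, which encodes the adiponectin binding protein T-cadherin, of 0.06 and the leptin receptor gene Lepr of -0.20. Of 20 transcription factors of fat cell formation, Srebf1 was past the threshold (1.54-fold higher). Cebpb and Cebpd, which act before Cebpa and Pparg in fat cell formation, had log2 fold changes of -0.40 and -0.55. Klf15 (-0.57) and Ppara (-0.53) had no overlap between groups, as in 7.21% of all probe sets, and were under the fold minimum. The log2 fold change of Klf4 was 0.60. The median of the 20 was -0.01, with 10 higher and 10 lower means.

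Of 17 genes of brown and beige fat 15 were measured and 0 passed. Their median log2 difference was -0.01. Ucp1, the uncoupling protein that defines brown fat cells, read 5.11, 5.22 and 6.34 on the transgenic arrays and 4.90, 5.45 and 5.31 on the WT arrays. Transgenic replicate 3, which was highest for Cidea too, was the highest, and the mean of Ucp1 was below the median level of 5.79. Tbx1, a beige fat marker, had a log2 fold change of -0.40 and was not past the threshold. WT replicate 2 was lowest for 3 of the 15.

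All 14 defining genes of skeletal muscle fibers were measured at or above the median level, with means over the list of 12.42 to 12.56 in transgenic and 12.59 to 12.66 in WT mice, which did not overlap. Of the 14, 13 had a lower mean in transgenic mice and 0 were past the threshold. Taken singly, the values of each of the 14 genes overlapped between groups, at the probe set that represented the gene. Their median log2 fold change was -0.12. Markers of fat cell precursors (9 measured, means of 8.92 to 9.20 in transgenic and 8.85 to 9.10 in WT mice) and of endothelium (7 measured, 8.70 to 9.10 and 8.81 to 9.02) overlapped between groups. Means of the 7 macrophage markers were 7.17 to 7.61 in transgenic and 6.99 to 7.18 in WT mice, highest in transgenic replicate 3, and Cd68 was past the threshold with limma (1.56-fold higher) but not with the methods' t-test (unadjusted p = 0.0688). Their r with Retn had a median of 0.715, with 0.814 for Mrc1, 0.737 for Cd14, 0.731 for Cd68 and -0.517 for Lyve1. The 9 precursor markers had a median r with Retn of 0.410, with 8 positive, from -0.140 to 0.820 (Pi16). The part of macrophages in the values of the adipocyte genes was not tested. Hepatocyte genes had means of 5.14 to 8.61 in transgenic and 5.0 to 8.58 in WT mice, and all 11 measured had a higher mean in transgenic mice, with 0 past the threshold. A marker gene of each of 7 other tissues or cell types (Pdgfra, Pecam1, Adgre1, Alb, Ckm, Myh11 and Cd79a) was compared with Retn and with Adipoq over the 6 arrays. With Retn r ranged from 0.0764 (Ckm) and 0.0868 (Alb) to 0.639 (Adgre1), with a lowest adjusted exact permutation p of 0.792 for r and 1 for rho. With Adipoq r ranged from -0.434 (Cd79a) to 0.585 (Adgre1), with a lowest adjusted exact permutation p of 0.765 for r and 0.833 for rho. After group means were removed the median of the 7 r with Retn was 0.543, against 0.263 before (Ckm 0.543, Pdgfra 0.544 and Myh11 0.639). Without the 2 arrays farthest from the median the r of Adgre1 was 0.458 with Retn and 0.0920 with Adipoq. In both families 0 of 7 relations had an unadjusted exact permutation p under 0.05. These 7 genes do not stand for all markers of their cell types. The 5 lymphocyte markers had a median r of -0.708 with Adipoq (1 positive), down to -0.956 for Cd3e. With Retn their median was -0.406 (2 positive), down to -0.954 for Cd3g, and 0 of the 5 had a mean at or above the median level. The macrophage marker Mrc1 had r = 0.845 with Adipoq, where the 7 macrophage markers had a median of 0.349 and 5 were positive. Means of 5 lymphocyte markers (5.09 to 5.32), 5 smooth muscle markers (8.90 to 9.56) and 3 keratinocyte markers (5.77 to 5.95) overlapped between groups, those of 3 Schwann cell markers did not (7.91 to 8.02 in transgenic and 7.63 to 7.72 in WT mice), and 1 of 6 red blood cell markers was measured.

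Median log2 values of the 6 arrays lay between 5.71 and 5.88. Pearson correlations over all probe sets were 0.942 to 0.974 within groups and 0.946 to 0.974 between groups, and these ranges overlapped. The paper reports that principal components, and clustering of differentially expressed genes, set the transgenic mice apart from the WT mice. The labels call the mice of a group biological replicates, and their number limits the precision of every value.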

How the data were processed

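Gastrocnemius RNA of 6 mice was measured on whole-transcript Affymetrix arrays for the mouse. Per probe set the authors deposited 1 log2 value an array, normalized before deposit. RMA is named in the submitters' processing notes, and the methods name GCOS and GeneSpring GX. They were used as deposited. Probe sets were named by the platform annotation, and those with several symbols were not assigned to a gene. The probe set with the highest mean represented a gene with several.

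Transgenic and WT arrays were compared with limma 3.58.1 in R 4.3.3 (lmFit and eBayes, no covariate) on all 41345 probe sets, with Benjamini-Hochberg adjustment over all of them. The study threshold, a fold change of at least 1.5 and an unadjusted p under 0.05, was taken from the methods, whose t-test was an alternative. Correlations over the 6 arrays were tested exactly over all 720 pairings, two-sided, with adjustment within each family of relations. Fits and correlations were tested on simulated data. Promoter windows were searched on both strands.

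The genes and lists were chosen with earlier results of these data known. Named genes were all members, list genes past the study threshold or with the largest changes among probe sets not below the median level of 5.79, relatives and receptors of the members, and the 10 probe sets most like Adipoq. Ucp1, Lipe, Mgll, Agpat2, Slc7a10, Mrc1, Cd14, Lyve1, Pi16, Cd3e and Cd3g fall outside this rule and were named after their values were seen. The 28 pairs and the likeness to Retn were added after the values were seen. Alternatives were the methods' t-test, no probe sets below the median level, quantile normalization, array weights, a replicate block, a trended robust fit and leaving out each array.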

Additional observations from a re-analysis of the deposited data

How the results depend on the processing

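All 8 adipocyte identity genes stayed below the study threshold under every alternative run except leaving out WT replicate 3, where Retn passed it, so the count was 0 to 1 over the fits that each left out 1 array. Over those fits the median log2 fold change of the 8 genes was 0.02 to 0.46, and that of single genes was -0.10 to 0.26 for Adipoq, -0.0537 to 0.57 for Lep, -0.0242 to 0.65 for Cidec, -0.0654 to 0.33 for Pparg, -0.0761 to 0.47 for Cebpa and -0.0787 to 0.14 for Fabp4. For Retn it was 0.18 to 0.81 and for Cidea 0.08 to 0.71. With array weights the median was -0.0548, and Adipoq (-0.0711), Cidec (-0.28), Pparg (-0.0566), Cebpa (-0.0530) and Fabp4 (-0.15) turned negative. Retn (0.03), Lep (0.06) and Cidea (0.50) stayed positive. The count over all probe sets, 618, was 281 with the methods' t-test, 146 without probe sets below the median level, 2610 with array weights and 732 to 1335 without 1 array. Of the genes of fat storage (2 past the threshold), 1 (Plin4) was past it with the t-test, which lost Scd1 and, among macrophage markers, Cd68, and 0 to 4 without 1 array. Without 1 array the counts were 0 to 1 for secreted factors, 1 to 3 for transcription factors, 0 to 1 for brown and beige fat genes and 0 to 2 for paralogs. The correlation of Lep with Adipoq turned from -0.03 to 0.675 without the 2 arrays farthest from the median of Adipoq. The cause of these changes was not tested.

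With the replicate number as a block, 0 of the 8 genes and 921 probe sets were past the threshold, and the median log2 fold change was 0.25. Retn had an unadjusted limma p of 0.0450 with this block, at a log2 fold change of 0.48, under the fold minimum. Arrays with the same number had correlations of their deviations from the group means of 0.33, 0.40 and -0.17. With 3 mice per group these values cannot decide whether mice with the same number share more than the number. Each gene had 1 probe set, so another probe set could not be tried. The deposited values hold no background signal, so how far a dim value lies above background is unknown.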
